A study of Caenorhabditis elegans with 2 samples.

Results

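The genes described here are xol-1, the master switch of sex determination and dosage compensation in Caenorhabditis elegans, and 9 genes of the dosage compensation machinery that acts below it, namely sdc-1, sdc-2, sdc-3, dpy-26, dpy-27, dpy-28, mix-1, dpy-21 and dpy-30. They are 10 of 19973 coding genes. The list was chosen on measured values in so far as xol-1 had one of the highest signals of the data. The other 9 genes were added for their function, with earlier results of these data known. The values near xol-1 are therefore a description, and no test was made on them. Called regions were assigned to a gene when their summit lay within 6 kb of it, which gave 66 of the 30000 regions called on the pooled replicates.

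Binding of NHR-84, a nuclear hormone receptor, was profiled by ChIP-seq in whole first-stage (L1) larvae, with hermaphrodites and males together. The strain, OP357, carries unc-119(tm4063) III and the integrated transgene wgIs357, from which NHR-84 is made with GFP-FLAG at its C-terminus. There was 1 group with 2 biological replicates, and both share the transgene and the unc-119 allele. A control library was not analysed here, and since chromatin came from whole animals, a strong signal in few cells and a weak one in many cannot be told apart. Regions were called on each replicate and on both pooled, with 30000 in each list. The irreproducible discovery rate (IDR) list holds 106 peaks, which are the 106 pooled regions of highest signal. Signal is the peak caller's own value, and its scale is not stated, so it is compared only within a list, where rank 1 is the highest. The pooled list runs from a signal of 175.3 down to 16.2, with a median of 20.4, so its lower part holds weak regions. By its label it holds peaks and background as input for the IDR step. A pooled region outside the IDR list is therefore not by itself a binding site told apart from background. Read counts are not part of these lists. The depth is therefore unknown, and no value carries a counting error. Coordinates are on build ce11.

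In C. elegans, XX animals are hermaphrodites and XO animals are males. XOL-1 is made in XO embryos and represses sdc-2. In XX embryos xol-1 is kept low by proteins encoded on X, SDC-2 then brings the dosage compensation complex to both X chromosomes, and expression from each X is lowered. The complex contains a condensin and is loaded at recruitment sites on X, which carry the MEX motif. The consensus of that motif holds the letters CGCGCA.

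The sequences at the xol-1 peak are shown because they hold a word that recurred at the highest X peaks. TCGCGCAGGG was the most frequent 10-base word within 100 bp of the summits of the IDR peaks on X, on either strand, at 7 of 22 peaks. The xol-1 peak is 1 of the 7 peaks that made it so. Capitals mark the word, which reads CCCTGCGCGA where it lies on the minus strand. The xol-1 line gives 100 bp on each side of the summit, and the other lines give 1 occurrence each with 14 or 15 flanking bases. All are plus strand of the RefSeq sequence of WBcel235, which is the same assembly as ce11.
xol-1 IDR peak, rank 13, chrX:8036354-8036554: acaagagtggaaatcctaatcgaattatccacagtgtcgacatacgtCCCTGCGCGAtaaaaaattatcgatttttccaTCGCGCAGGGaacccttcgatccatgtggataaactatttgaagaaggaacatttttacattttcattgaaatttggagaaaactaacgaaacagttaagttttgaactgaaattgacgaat
X peak nearest to W02H3.3, rank 2, chrX:11094211-11094249: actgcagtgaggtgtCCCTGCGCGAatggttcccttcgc
X peak nearest to gtr-1, rank 6, chrX:806657-806695: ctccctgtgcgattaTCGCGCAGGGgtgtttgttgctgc
X peak nearest to ins-39, rank 32, chrX:1345039-1345077: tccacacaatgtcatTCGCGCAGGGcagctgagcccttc
X peak nearest to Y41G9A.17, rank 36, chrX:2997108-2997146: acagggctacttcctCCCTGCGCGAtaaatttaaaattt
X peak nearest to F22H10.2, rank 39, chrX:16682157-16682195: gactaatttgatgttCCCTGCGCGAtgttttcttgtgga
X peak nearest to cest-16, rank 47, chrX:6296559-6296597: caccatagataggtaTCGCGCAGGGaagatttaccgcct

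The xol-1 peak held the word at 2 places, on opposite strands, at chrX:8036401-8036410 (minus) and chrX:8036433-8036442 (plus). They were separated by 22 bp and lay 44 and 12 bp from the summit. The other 6 peaks held 1 copy each. The word occurred 19 times on X, or 1.07 per Mb, and 6 times on the autosomes, or 0.0727 per Mb. Only 9 of the 19 copies on X and 1 of the 6 on the autosomes had a pooled summit near them. The copies at xol-1 were the 1 place on X where the word lay on opposite strands within 100 bp, and the autosomes had 0 such places. Within 100 bp of a summit the word was found at 1 of 66 pooled regions near the 10 genes, 9 of all 30000 pooled regions (0.03%), 1 of the 5169 X regions below the IDR list (0.0193%) and 0 of the 84 autosomal IDR peaks, a count of 0 that allows a share of up to 3.57%. The word was picked for its frequency at the X IDR peaks, so a lower share elsewhere is in part built in. The nearest copy lay 399638 bp from sdc-1 and 365914 bp from sdc-2, the other members on X. The MEX motif itself was not scored, so no statement on it is made.

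The shorter word CGCGCA, searched on both strands and contained in the longer one, was at the highest region of 1 of the 10 genes, xol-1. It was found at 4 of the 66 regions near the genes (6.06%), against 917 of all 30000 pooled regions (3.06%), 178 of 5191 on X (3.43%), 10 of 22 X IDR peaks (45.5%) and 12 of 84 autosomal IDR peaks (14.3%). Besides xol-1, these were a region of rank 24936 near sdc-2, one of rank 16715 near dpy-27 and one of rank 6059 at the mix-1 promoter. AGGTCA, the half-site letters that many nuclear receptors recognise, was not found within 100 bp of the xol-1 summit. It was at 2 of the 66 regions (3.03%), near dpy-27 and dpy-30, against 1562 of 30000 (5.21%).

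The xol-1 gene (WBGene00006962) lies at chrX:8041313-8044409 on the plus strand and is 3097 bp long. Its peak, chrX:8036302-8036605, had its summit 4859 bp upstream of the first TSS, in intergenic sequence. The signal was 95.5 in the pooled list, at rank 13, with a q-value of 0.0182 from the caller. It was 26.1 in replicate 1, at rank 181 with a q-value of 0.440, and 64.6 in replicate 2, at rank 6 with a q-value of 0.0233. The peak was thus called in both replicates, with summits 23 bp apart, and stood much higher in the list of replicate 2. The nearest coding TSS was that of xol-1, but the nearest genes of any kind were the short ncRNA gene C18A11.13, 220 bp away, and the tRNA gene WBGene00022939, 231 bp away at chrX:8036685-8036757. A second tRNA gene, WBGene00022938, lay 1053 bp from the summit between it and xol-1. The nearest coding gene on the other side, C34D10.1, ended 4840 bp from the summit, so the peak lay about equally far from the bodies of both coding genes.

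The other 5 pooled regions near xol-1 were far lower. The next, of rank 562 and signal 37.7, lay 7430 bp downstream of the TSS, past the neighbouring gene C18A11.4, and had a replicate 1 region (rank 431) within 100 bp but none in replicate 2. A region of rank 4757 and signal 26.3 lay in an intron 594 bp from the TSS, with rank 3282 in replicate 1 and 27539 in replicate 2. A region of rank 9492 and signal 22.8, also inside the gene, 1950 bp from the TSS, was at rank 336 in replicate 1 and had none in replicate 2. The 2 remaining regions were at ranks 14422 and 19006, downstream. No pooled region lay at the xol-1 promoter, which for every gene ran from 500 bp before a TSS to 100 bp after it. The signals in the 3 lists are drawn by position around the gene.

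**Figure D1:**
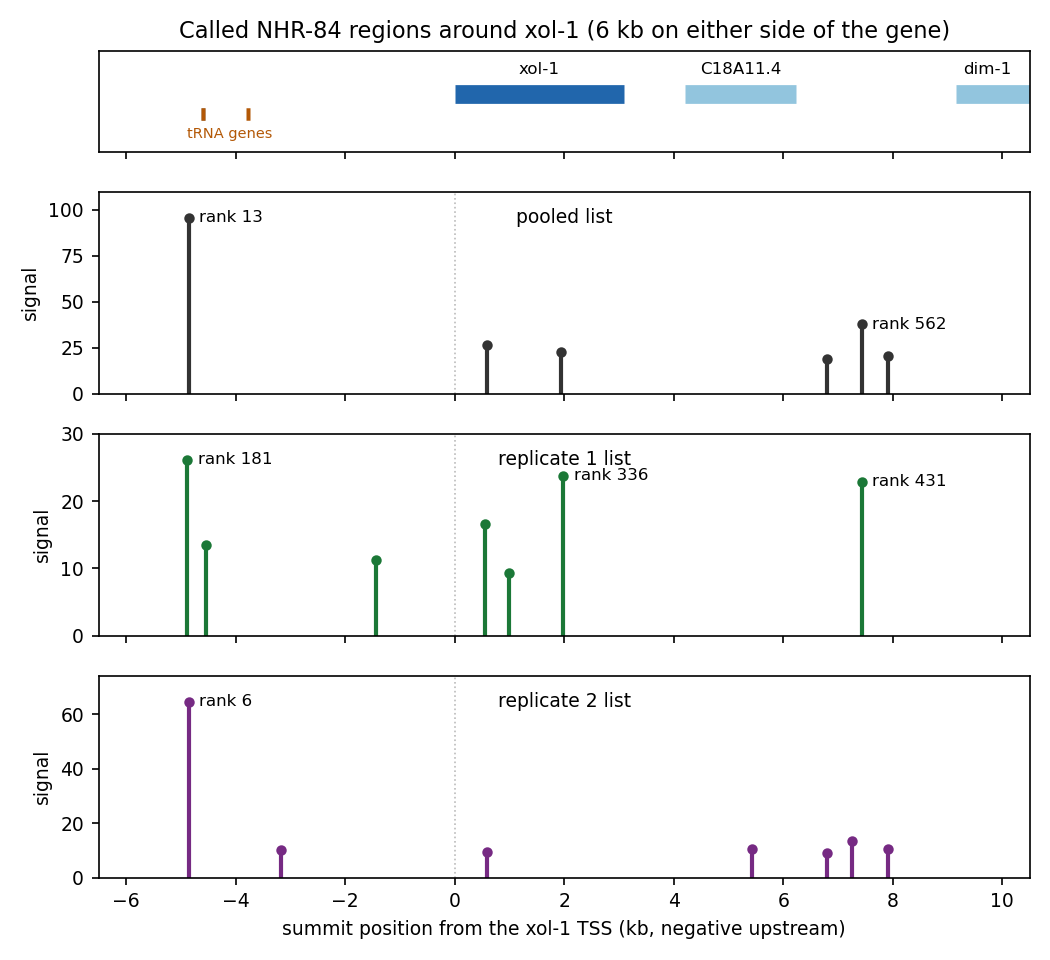
Signal of each called region (vertical axis, the caller's value) against its summit position from the xol-1 TSS in kb, in the pooled, replicate 1 and replicate 2 lists, with coding genes (blue) and tRNA genes (orange) above. Each point is 1 region, and the upstream peak is the highest near xol-1 in all 3 lists, at rank 13, 181 and 6.

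Of the coding genes, 0.315% had a pooled region within 6 kb at least as high as that of xol-1. The share was 2.94% in replicate 1 and 0.12% in replicate 2. Other IDR peaks differed between the replicates too. Of the 93 other peaks with a region within 100 bp in both replicates, 49 ranked higher in replicate 2. The rank of xol-1 in replicate 1 was 30.2 times its rank in replicate 2, and 6 of the 93 had a ratio at least as large. On X these were 11 and 3 of the 18 other peaks. The depth of either library is not given, and the cause of the difference in rank was not tested.

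**Figure D2:**
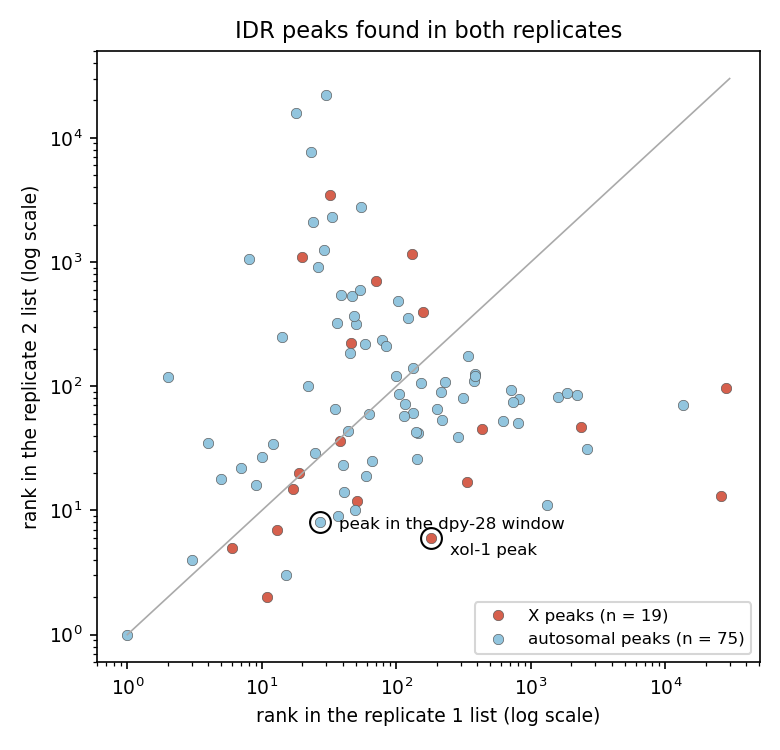
Rank in replicate 2 (vertical, log scale) against rank in replicate 1 (horizontal, log scale) for the 94 IDR peaks found in both, with 19 on X in red and 75 on autosomes in blue. The line marks equal ranks, and the xol-1 peak lies below it at ranks 181 and 6, while the peak in the dpy-28 window is at ranks 27 and 8.

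The peaks most like that of xol-1 in rank, by the sum of absolute log10 rank differences over the 3 lists, were those nearest to ZK1248.17, rpl-15 and tasp-1. The ZK1248.17 peak, at the short RNA gene sls-2.1, had ranks 17, 49 and 10 in the pooled, replicate 1 and replicate 2 lists (sum 0.91). The peak at the promoter of rpl-15, a ribosomal protein gene, had ranks 18, 37 and 9 (sum 1.01). The tasp-1 peak had ranks 11, 27 and 8 (sum 1.02), and it is the peak that falls in the window of dpy-28.

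An IDR peak lay within 6 kb of 2 of the 10 genes, xol-1 and dpy-28, against 2.02% of all coding genes and 2.01% of those on X. A pooled region among the 1000 highest lay near 5 of 10, xol-1, dpy-26, dpy-27, dpy-28 and mix-1, against 14.1% of all coding genes. The 10 genes are longer than most, with a median of 7916 bp against 2027 bp for all coding genes, and a longer gene has a wider window. Among genes of 5 kb or longer, 4 of 8 members had a region among the 1000 highest, against 18.8% of 3233 coding genes, and 1 of 8 had an IDR peak, against 2.23%. The median of the best ranks was 946 for the 10 genes and 1149 for the 9 without xol-1, against 5186 for all coding genes. In that median the 606 coding genes without a region were placed last. At 5 kb or longer it was 946 for the members and 3458 for all. Per 10 kb of window the 10 genes had a median of 3.53 pooled regions, against 2.94 for all coding genes. The counts over all 10 genes include the peak for which xol-1 was chosen. Without xol-1 an IDR peak was near 1 of 9 genes and a region among the 1000 highest near 4 of 9. These 9 genes, too, were listed with earlier results of the data known.

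A pooled region lay at the promoter of sdc-2, dpy-21 and mix-1, which is 3 of 10 genes against 25.1% of all coding genes. The single lists gave other sets, 1 gene in replicate 1 (dpy-21) and 3 in replicate 2 (dpy-21, dpy-28 and mix-1). No IDR peak lay at the promoter of any of the 10. Of the 66 regions, 27 were upstream, 18 downstream and 13 in a coding exon of the member. A region within 100 bp was called in both replicates for 20 of the 66 (30.3%), against 20.1% of all pooled regions. In neither replicate was there one for 11 (16.7%), against 14.9% of all. Outside the IDR list the caller's q-values of the 64 other regions were between 0.781 and 0.917. For all 10 genes the highest pooled region had a region within 100 bp in both replicates, against 44.3% of the 19367 coding genes with a pooled region. At 5 kb or longer this held for 8 of 8 members, against 52.4% of coding genes. The pooled list is made from the same replicates, and these backgrounds were not matched for rank. The median best rank of the members was higher than that of the coding genes. The best rank of each gene is drawn for the 3 lists.

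**Figure D3:**
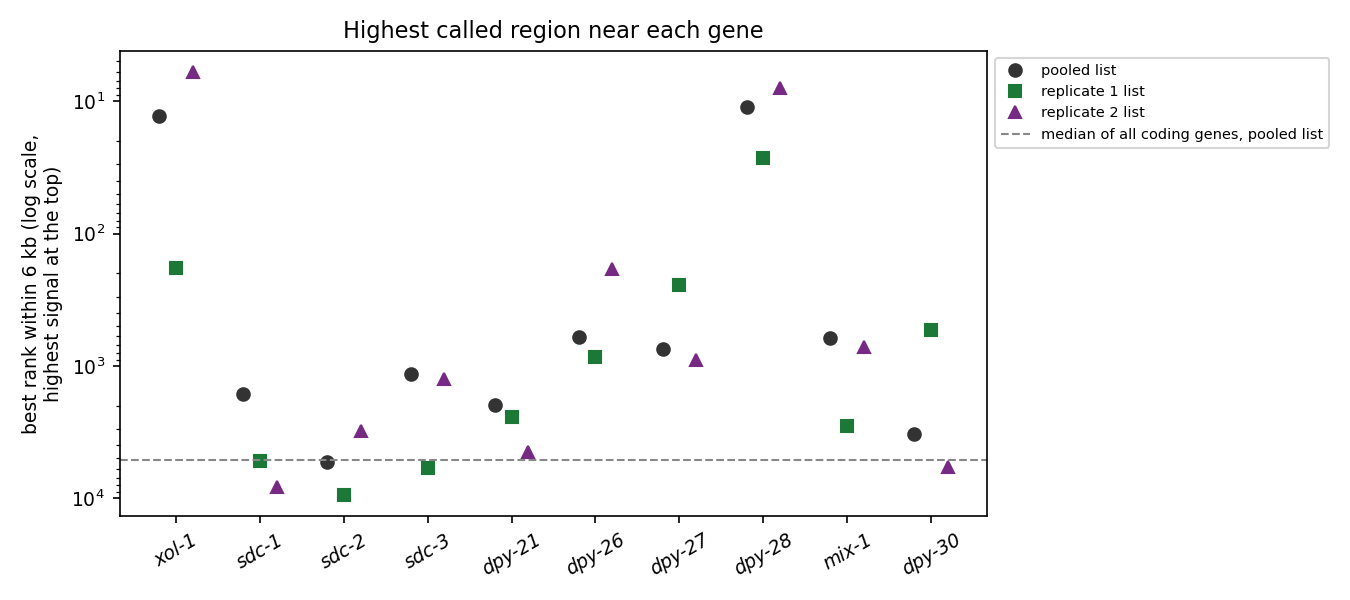
Best rank of any region within 6 kb of each gene (vertical, log scale, highest signal at the top) in the pooled, replicate 1 and replicate 2 lists, 1 point per gene and list. The dashed line is the pooled median of all coding genes, 5186, and xol-1 and dpy-28 stand above the other 8 genes in the pooled list.

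The SDC proteins bring the complex to X, and they also repress her-1, a male-determining gene. No IDR peak was near any of the 3 genes, and their best pooled ranks were all past 1000. At sdc-1, a zinc-finger gene at chrX:16275763-16282534, the highest region lay 952 bp upstream in intergenic sequence, at rank 1637 with a signal of 31.5. It had a signal of 15.1 in replicate 1 (rank 5219) and 13.5 in replicate 2 (rank 8189). This places sdc-1 near the middle of all coding genes in the single replicates, where 51.7% and 66.3% of them had a region at least as high.

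At sdc-2, the XX-specific trigger of assembly on X and the gene that XOL-1 represses (chrX:11522707-11533450), the best rank was 5365 (signal 25.7). It lay past the end of the gene, in a coding exon of gcp-2.2, with rank 20167 in replicate 1 and 3566 in replicate 2. At its own promoter, 355 bp upstream, a pooled region of rank 11159 was called with no region within 100 bp in either replicate. Thus sdc-2 had the lowest best signal of the 10 genes in the pooled list, and 51.1% of coding genes had a region at least as high. For sdc-3, which encodes a zinc-finger protein of the complex (chrV:15039148-15048207), 1 pooled region was called, in a coding exon 3546 bp from the TSS. Its signal was 33.4 in the pooled list (rank 1149), 14.7 in replicate 1 (rank 5901) and 19.3 in replicate 2 (rank 1261).

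The 4 condensin genes dpy-26, dpy-27, dpy-28 and mix-1 each had a higher best rank than each of the 3 sdc genes, in the pooled list and in both replicates. At dpy-26 and dpy-27, however, the best region was not the same region in the 2 replicates. Condensin genes outside the 10 did not all do so: capg-1, whose product is also in the dosage compensation condensin, had a best pooled rank of 18190, capg-2 of 8436 and smc-4 of 6926, below each sdc gene. The best pooled ranks of hcp-6 (1094) and kle-2 (856) were above those of each sdc gene. Of these genes outside the 10, only capg-2 had a highest pooled region with a region within 100 bp in both replicates. Its ranks there were 26061 and 5478. The highest regions of capg-1, smc-4, hcp-6 and kle-2 each had one in only 1 replicate. DPY-27 is the SMC subunit found in this complex and not in the mitotic condensins, MIX-1 its SMC partner, DPY-26 the kleisin that links them, and DPY-28 a HEAT-repeat subunit. All 4 had a pooled region among the 1000 highest, although that of dpy-28 was at another gene's promoter and that of mix-1 at a snoRNA gene inside mix-1. The sequence at the dpy-28 window peak is printed for comparison with xol-1, and that upstream of dpy-27 since it was the highest region in intergenic sequence next to a condensin gene. Both are plus strand of WBcel235, and as neither holds the words searched, they have no capitals.
peak in the dpy-28 window, rank 11, chrIII:10759099-10759299: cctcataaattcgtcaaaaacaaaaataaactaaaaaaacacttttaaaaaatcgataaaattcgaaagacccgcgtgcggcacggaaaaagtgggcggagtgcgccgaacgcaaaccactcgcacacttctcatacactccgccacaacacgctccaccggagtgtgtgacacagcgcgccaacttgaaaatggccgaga
dpy-27 upstream region, rank 743, chrIII:3820800-3820900: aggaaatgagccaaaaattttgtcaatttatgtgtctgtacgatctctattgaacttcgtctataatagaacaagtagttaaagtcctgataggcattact

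At dpy-28 (chrIII:10763131-10777076) the IDR peak chrIII:10759047-10759350 had a summit 3932 bp upstream of its TSS. That summit was 108 bp upstream of tasp-1, at the tasp-1 promoter, so tasp-1 lies between the summit and dpy-28, and the peak reaches 44 bp into tasp-1. The signal was 98.9 in the pooled list (rank 11), 38.6 in replicate 1 (rank 27) and 59.0 in replicate 2 (rank 8). Both replicates thus ranked it high, where xol-1 stood high in replicate 2 and lower in replicate 1. The 101 bases around its summit were 54.5% G and C, against 35.6% at xol-1 and a median of 36.6% over all pooled regions. The nearest pooled region to the dpy-28 TSS itself was 593 bp upstream, in an intron of tasp-1, at rank 1760 (signal 31.2), with rank 9147 in replicate 1 and 2038 in replicate 2. Replicate 2 alone also had a region at the dpy-28 promoter, 391 bp upstream at rank 18638.

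At dpy-26 (chrIV:12445801-12451335) the highest region was in a coding exon 1106 bp from the TSS, with a signal of 37.2 in the pooled list (rank 609), 20.6 in replicate 1 (rank 865) and 20.2 in replicate 2 (rank 948). The replicates ranked it closely alike. A second exonic region, at pooled rank 3531, had rank 185 in replicate 2 and none in replicate 1. At dpy-27 (chrIII:3813018-3819679) the highest region lay 1171 bp upstream, with a signal of 36.0 (rank 743), 18.8 in replicate 1 (rank 1530) and 20.4 in replicate 2 (rank 909). Nearer to the TSS, 704 bp upstream, a region of pooled rank 10211 had rank 247 in replicate 1 and none in replicate 2, so the best region of dpy-27 differed between the replicates. At mix-1 (chrII:10824246-10841424) the highest region lay in an intron 16143 bp from the TSS, at the snoRNA gene M106.6 inside mix-1. Its signal was 37.2 (rank 615), 16.9 in replicate 1 (rank 2841) and 21.1 in replicate 2 (rank 725). The mix-1 promoter, shared with R06F6.12, had a region 74 bp upstream at rank 6059, with rank 6783 in replicate 2 and none in replicate 1.

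DPY-21 is a histone demethylase that turns dimethylated H4K20 into the monomethylated form, a mark enriched on the compensated X. At dpy-21 (chrV:17936282-17949193) the highest of 12 regions, at rank 1963 (signal 30.7), was at the promoter of a neighbouring gene, Y59A8B.24, with rank 11645 in replicate 1 and 4517 in replicate 2. Its own promoter had a region 348 bp upstream at rank 2506, with signals of 29.5 in the pooled list, 13.4 in replicate 1 (rank 8914) and 9.34 in replicate 2 (rank 27261). It was the member with the highest region at its own promoter, but that region was near the end of the list in replicate 2.

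DPY-30 is shared by the dosage compensation complex and the COMPASS complex that methylates histone H3. At dpy-30 (chrV:12191519-12192385), the shortest of the 10 genes, the best pooled region was at rank 3268 (signal 28.2), 4117 bp upstream in the 5′ UTR of ZK863.8. It had a signal of 12.6 in replicate 1 (rank 11572) and 14.6 in replicate 2 (rank 5820), and held the word AGGTCA. A region in its own 3′ UTR, which is also the promoter of rnp-1, was at pooled rank 5254, at rank 536 in replicate 1 and at none in replicate 2.

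**Figure D4:**
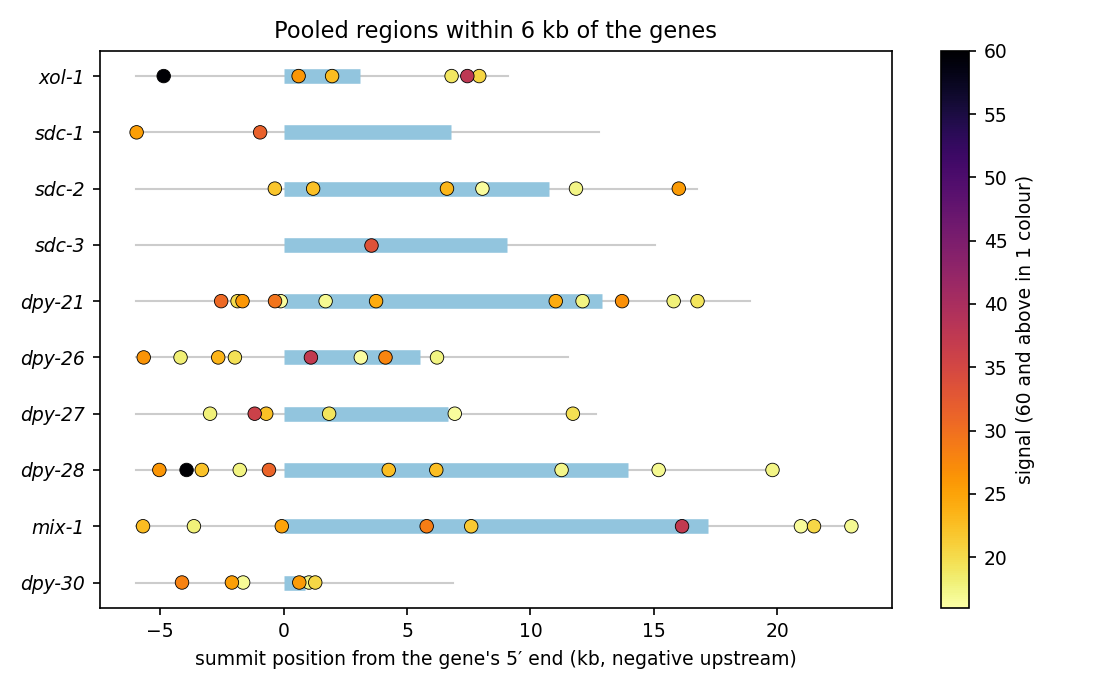
Position of the 66 pooled regions (points, coloured by signal) from the 5′ end of each gene in kb, with gene bodies in blue and the 6 kb windows in grey. The darkest points, upstream of xol-1 and dpy-28, are the 2 IDR peaks, and the other 64 regions had signals below those of the IDR list.

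Other genes of the pathway were taken from lists for condensin, the X and autosomal signals read by xol-1, sex determination, COMPASS and H4K20. Of 31 listed, 29 were found by name. An IDR peak lay within 6 kb of 0 of the 29, against 2.02% of all coding genes, and a region among the 1000 highest was near 4 of 29, against 14.1%. Both counts are near the background. Their median best rank was 4773, close to the 5186 of all coding genes. ceh-39, an X-encoded repressor of xol-1, had a region 606 bp upstream at rank 599, with rank 3472 in replicate 1 and 10585 in replicate 2. kle-2, the kleisin of a mitotic condensin, had one at its promoter at rank 856, with rank 183 in replicate 1 and none in replicate 2. ash-2, a COMPASS subunit, had rank 236 at a region 5560 bp upstream, with rank 2859 in replicate 1 and 349 in replicate 2, and pooled rank 386 at its promoter. cec-4, which anchors chromatin to the nuclear periphery, had rank 927 at the snoRNA gene F32E10.10, with rank 137 in replicate 1 and none in replicate 2. The 11 sex-determination genes had 0 regions among the 1000 highest, a count too small to set against the 14.1% of all coding genes, and a median best rank of 5812.

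The window of 6 kb set which regions were counted. The members' last region inside it was at 5956 bp from sdc-1 (rank 5802), and the first outside at 6092 bp from dpy-28 (rank 18263). The nearest IDR peak to the other 8 genes was between 27498 bp (mix-1, rank 74) and 2049011 bp (dpy-21, rank 62) away. That nearest to dpy-27 was the peak of rank 1, at 47900 bp.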

How the data were processed

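Per the labels, 2 biological replicates of L1 larvae were profiled by ChIP-seq after sonication, with an antibody whose label names the target. The authors deposited lists of regions on ce10 and ce11, made from each replicate, from both pooled and after an IDR step. A control alignment was also used, per the records of these deposited files. No source used here names the aligner, the peak caller or the cutoff of the IDR step. Signal is the deposited value of the caller for a region, and q-values were computed from the deposited −log10 q-value.

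Regions were ranked by signal within each list. Summits were compared on ce11 with the genes of Ensembl release 115, and replicates were matched when summits lay within 100 bp. Summits up to 200 bp from a short RNA gene (tRNA, snRNA, snoRNA, rRNA) counted as at it. Start sites of trans-spliced genes are approximate. Words were counted on both strands within 100 bp of summits. The functions were checked on simulated data. The members and lists were chosen with earlier results of these data known. All 10 members were named, as were pathway genes with a region among the 1000 highest and the 3 peaks closest to xol-1 in rank. Python 3.11.15, numpy 2.4.6, pandas 2.3.3 and matplotlib 3.10.9 were used.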

Additional observations from a re-analysis of the deposited data

How the results depend on the processing

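Over 7 results, 27 alternatives were tried, of which 15 left the value close to that reported and 12 moved it. Counts of genes with an IDR peak were 0 with a window of 2 kb and 1 where the nearest coding TSS had to be the gene's own (xol-1), an alternative added after seeing the data. With replicate 1 or 2 left out, when the 106 highest regions of the other replicate took the place of the IDR list, the count was 2 or 1 (range 1 to 2), since the xol-1 peak was at rank 181 in replicate 1 and at rank 6 in replicate 2. Genes with a region among the 1000 highest numbered 3 within 2 kb, and 2 and 8 at rank limits of 500 and 2000. With either replicate left out the number was 5, but with replicate 2 left out mix-1 was replaced by dpy-30. Promoter counts were 6 with 1000 bp upstream and 200 bp downstream, 8 with 2000 and 500 bp, and 1 to 3 with a replicate left out. A wider window takes in more regions by construction. The median best rank of the 9 dosage compensation genes was 1637 within 2 kb, which was counted as close to the 1149 reported. It was between 1261 and 2429 with a replicate left out, and the cause was not tested. Within 150 bp the word CGCGCA was at the highest region of 2 genes, with dpy-28 added. On build ce10 the xol-1 peak was at rank 13 as well. The background of coding genes of 5 kb or longer was added after seeing the data too.

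No paired analysis was possible because both samples belong to 1 group. No read counts came with the lists, so the depth of either replicate is unknown. With 2 replicates, no spread is given beyond the difference between them. The control and the reads were not analysed here.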
